A study of Homo sapiens with 6 samples.

Results

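TIMP2, SPARC, COL4A2 and LTBP1 encode 4 proteins of the extracellular matrix, and their RNA was followed in LX-2 cells treated with a plant extract or a flavonoid. LX-2 is an established human line of hepatic stellate cells, labelled as wild type. The groups were cells kept for 24 h with FEBJ, the extract of Brucea javanica fruit, with cynaroside, which is luteolin carrying a glucose, or with DMSO as the solvent control. Each of the 3 groups held 2 RNA-seq libraries, made from total RNA, and the labels gave no doses. Whether paired libraries stem from separate cultures is not stated in them, so the p-values of all comparisons measure only the spread between these libraries, which may be technical.

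The 4 genes were chosen from their values in these same libraries, out of 1696 genes that could be read in the same way, so their levels and fold changes are given as a description with no test. Each has 2 readings. The own row is the count the table gives for the gene. The opposite-strand reading is the summed count of non-coding rows whose exons overlap exons of that gene, and of no other gene, on the other strand by 50 bp or more. Such a row entered the sum only if its own count over all 6 libraries was at or above that of the gene's own row. The strand setting of the counting was not given in the sources used here, so RNA of the gene and RNA of an antisense transcript cannot be told apart in either reading. Of the 1696 genes, 1440 passed the filter on low counts, and all 4 genes were among them. All 4 also passed it in the deposited rows, of which 12012 of 62754 were tested. The own row of LTBP1 passed through its counts in the DMSO group alone.

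Stellate cells store vitamin A in the resting liver and turn into matrix-producing myofibroblasts after injury. The matrix they lay down is built from collagens, is organised by matricellular proteins, holds growth factors in store, and is cut back by metalloproteinases that tissue inhibitors restrain. COL4A2 is a chain of type IV collagen, the network collagen of basement membranes. SPARC is a collagen-binding matricellular glycoprotein, LTBP1 tethers latent TGF-beta to the matrix, and TIMP2 inhibits metalloproteinases and also takes part in the activation of pro-MMP2 at the cell surface.

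The opposite rows cover different parts of the 4 genes in the GENCODE 29 annotation. TIMP2, on the minus strand of chromosome 17, was read from ENSG00000267601, a row with 1 exon of 367 bp that lies wholly inside the last of the 5 exons of TIMP2's principal transcript, over 175 coding and 192 untranslated bp. SPARC, on the minus strand of chromosome 5, was read from CLMAT3, whose 6 exons span 2191 bp. Of these, 381 bp overlapped SPARC exons, none of them coding, while 847 bp lay in SPARC introns and 963 bp outside the gene. The bases of CLMAT3 beyond that overlap are sequence that annotated SPARC exons do not contain.

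COL4A2, on the plus strand of chromosome 13, was read from COL4A2-AS1, with 3 exons of 540 bp, of which 81 bp overlapped exon 47 of the 48 in the principal transcript and 459 bp lay in introns. LTBP1, on the plus strand of chromosome 2, was read from ENSG00000285577, with 3 exons of 1912 bp. Of these, 249 bp overlapped exons 13 and 14 of the 30 in the principal transcript, and 1663 bp lay in introns. Each gene had 1 such row, and no other coding gene lay opposite to it.

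**Figure D1:**
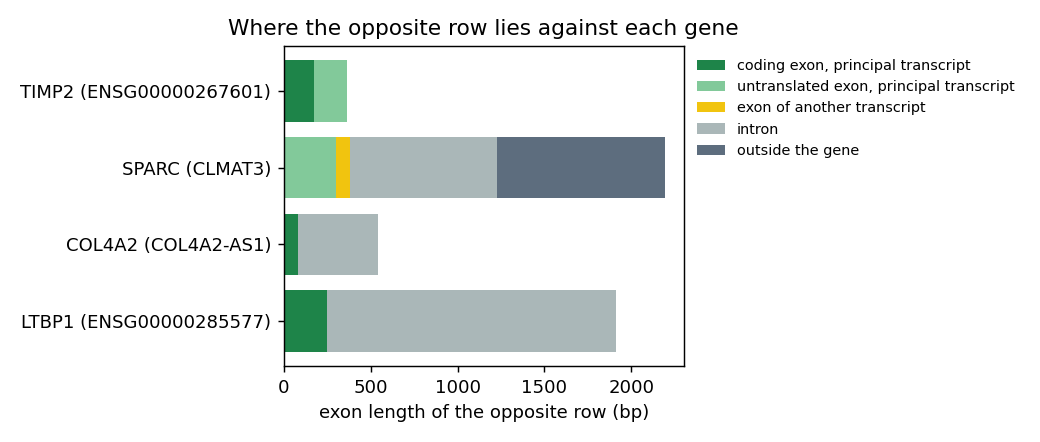
Exon length in bp of the opposite row of each gene, split by what lies on the other strand (coding or untranslated exon of the principal transcript, exon of another transcript, intron, or outside the gene). The row for TIMP2 lies wholly in an exon, whereas exon overlap makes up 17.4% of the row for SPARC, 15.0% for COL4A2 and 13.0% for LTBP1.

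The coding stretches that the opposite rows share with 3 of the genes are printed here. They are among the places where a read of the gene's spliced RNA could have been counted in the opposite row. Shared untranslated bases, 192 bp in TIMP2 and 381 bp in SPARC, are such places too and are not printed. The printed stretches are the coding parts of the exons named above, on the gene's own strand, 5′ to 3′. Bases shared with the opposite row are in capitals. The TIMP2 stretch holds bases 765 to 959 of the principal transcript, the COL4A2 stretch bases 4932 to 5218, and the LTBP1 stretches bases 1847 to 1972 and 1973 to 2095, each counted from the transcript's 5′ end in GENCODE 29. No stretch is shown for SPARC, whose shared exon bases are untranslated.
TIMP2 exon 5: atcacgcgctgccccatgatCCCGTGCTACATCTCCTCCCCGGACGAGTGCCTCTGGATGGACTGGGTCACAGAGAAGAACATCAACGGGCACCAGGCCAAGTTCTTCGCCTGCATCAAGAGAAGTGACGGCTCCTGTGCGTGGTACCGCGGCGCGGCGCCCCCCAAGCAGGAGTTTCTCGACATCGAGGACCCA
COL4A2 exon 47: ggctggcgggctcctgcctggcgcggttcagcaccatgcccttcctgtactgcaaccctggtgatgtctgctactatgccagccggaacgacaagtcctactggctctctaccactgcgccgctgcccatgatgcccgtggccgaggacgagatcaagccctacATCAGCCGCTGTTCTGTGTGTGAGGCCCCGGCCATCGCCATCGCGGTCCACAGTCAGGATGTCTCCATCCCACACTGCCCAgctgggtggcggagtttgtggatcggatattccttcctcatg
LTBP1 exon 13: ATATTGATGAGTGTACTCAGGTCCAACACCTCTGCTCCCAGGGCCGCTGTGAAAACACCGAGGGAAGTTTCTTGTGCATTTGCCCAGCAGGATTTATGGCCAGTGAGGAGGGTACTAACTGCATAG
LTBP1 exon 14: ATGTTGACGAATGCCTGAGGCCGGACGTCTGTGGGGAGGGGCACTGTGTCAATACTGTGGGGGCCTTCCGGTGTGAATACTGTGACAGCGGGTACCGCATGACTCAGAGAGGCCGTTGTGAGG
Of the 195 coding bases of TIMP2 in this exon 175 were shared, against 81 of 287 in COL4A2. Both LTBP1 exons were shared along their whole length, 126 and 123 bases.

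Gene rows held 1599000 to 4709317 counts per library, or 5.48 to 6.12% of what was counted. A further 87.4 to 88.3% was assigned to no feature by the counting. Its strand setting was not given, so these reads need not lie outside annotated exons. Levels are in CPM, counts per 1000000 of the TMM-scaled library size of the same reading, and are therefore relative to the other genes of that reading. Of 17 stellate cell and fibroblast markers 11 had a count, and DES, PDGFRA, COL1A2, LRAT, DCN and LUM were at 0. The summed own rows of these markers came to 735 to 753 CPM in DMSO, 80.5 to 90.7 CPM in FEBJ and 154 to 188 CPM in cynaroside, so this sum moved with the own rows described here. Most of it was VIM and COL1A1, with means of 367 and 293 CPM in DMSO, 45.9 and 2.61 in FEBJ and 93.4 and 29.7 in cynaroside. The VIM row lies opposite to other exons. Of these markers 5 were tested in the opposite-strand reading, of which 2 fell and 1 rose in FEBJ and 1 fell and 1 rose in cynaroside. In FEBJ VIM had a log2 fold change of -0.91 ± 0.01, THY1 -0.70 ± 0.09 and NGFR 2.93 ± 0.16, and in cynaroside VIM had -0.34 ± 0.01 and ACTA2 1.00 ± 0.13. These differ in direction among themselves, unlike the summed own rows. Markers of hepatocytes came to at most 0.707 CPM in DMSO, 12.2 to 13.5 CPM in FEBJ and at most 2.02 CPM in cynaroside, with ALB, TTR, FGB, AHSG and HNF4A at 0. In FEBJ most of this sum was SERPINA1, with a mean of 10.6 CPM. Markers of bile duct and other epithelium, 6 of 8 with a count, came to 1618 to 1627 CPM in DMSO, 1524 to 1541 CPM in FEBJ and 664 to 674 CPM in cynaroside, with KRT19 and EPCAM at 0. Most of this sum was KRT8, with means of 1498 CPM in DMSO, 1421 in FEBJ and 575 in cynaroside, whose row lies opposite to other exons. KRT7, the 1 epithelial marker tested in the opposite-strand reading, went from 161 ± 8.60 CPM in DMSO to 955 ± 112 CPM in FEBJ and 74.4 ± 26.0 CPM in cynaroside (SD, n = 2). Macrophage markers, 5 of 9 with a count, came to 1.95 to 3.89 CPM in DMSO, 9.95 to 12.2 CPM in FEBJ and 4.54 to 6.86 CPM in cynaroside, with CD163, C1QA, VSIG4 and PTPRC at 0. Endothelial markers, 5 of 9 with a count, came to 127 to 130 CPM in DMSO, 161 to 169 CPM in FEBJ and 172 to 181 CPM in cynaroside, with PECAM1, VWF, CDH5 and CLEC4G at 0. Most of this sum was STAB1, with means of 125 CPM in DMSO, 160 in FEBJ and 166 in cynaroside, whose row also lies opposite to other exons. The part of these markers in the results was not tested, and in bulk RNA fewer cells of a type and less RNA per cell cannot be told apart.

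In the opposite-strand reading all 4 genes were lower in FEBJ than in DMSO, with log2 fold changes from -1.38 to -4.07. In cynaroside against DMSO, SPARC had -0.46, and TIMP2, COL4A2 and LTBP1 had values from -0.15 to 0.03. All 4 were called lower after FEBJ and 0 higher, where 34.6% of the 1440 genes were called lower and 35.9% higher with edgeR's quasi-likelihood test at an adjusted p of 0.05. After cynaroside 1 of 4, SPARC, was called lower and 0 higher, where 21.5% of all genes were called lower and 20.2% higher. Between the treatments 4 were called lower in FEBJ than in cynaroside and 0 higher, where 34.2% of all genes were called lower and 35.3% higher. The genes were picked for these values, so the counts say nothing beyond the choice. The comparisons with DMSO share their control libraries, and those with FEBJ share the FEBJ libraries.

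**Figure D2:**
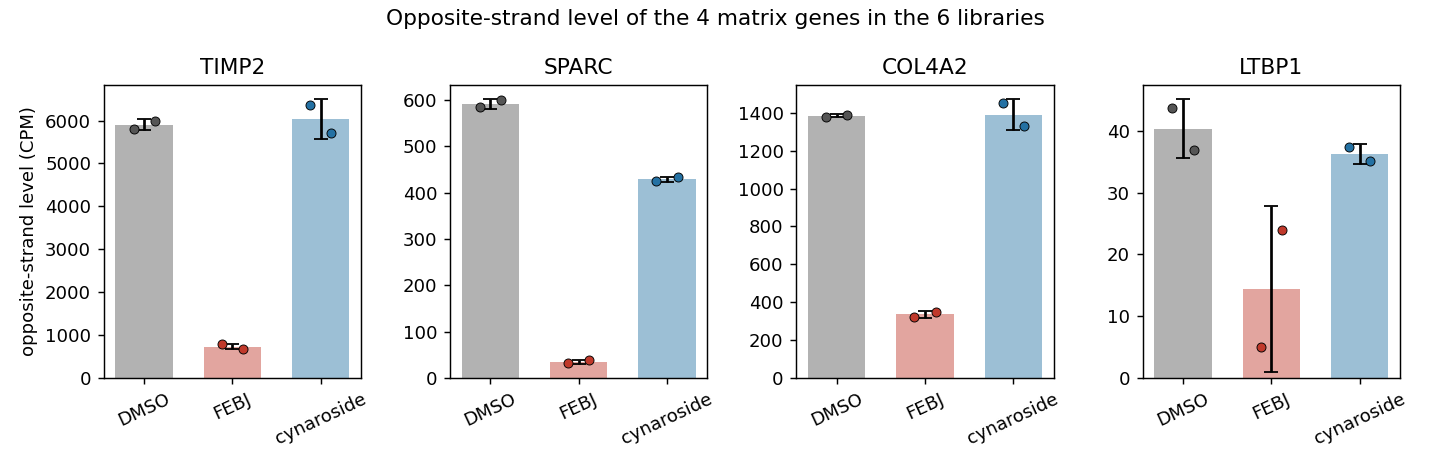
Opposite-strand level in CPM (linear axis from 0) of each gene in the 6 libraries. Points are libraries, bars are group means and error bars are the SD of 2 libraries; for COL4A2 the FEBJ libraries sit at 323 and 347 CPM, under all 4 other libraries, while for LTBP1 the FEBJ libraries stand far apart at 4.92 and 24.0 CPM.

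COL4A2 supplies the alpha-2 chain that joins alpha-1 chains in the most widespread form of type IV collagen. COL4A2-AS1 held 1356 and 1994 counts in DMSO, 328 and 493 in FEBJ and 969 and 2616 in cynaroside. This came to 1380 and 1389 CPM in DMSO, 323 and 347 CPM in FEBJ and 1450 and 1332 CPM in cynaroside. Both FEBJ libraries were well under the 4 others, and the cynaroside libraries lay on either side of the DMSO pair. The means were 1385 ± 6.93 CPM in DMSO, 335 ± 17.4 CPM in FEBJ and 1391 ± 83.1 CPM in cynaroside (SD, n = 2). The log2 fold change was -2.04 ± 0.08 (SE) in FEBJ and 0.00 ± 0.07 in cynaroside, each against DMSO, and -2.04 ± 0.08 in FEBJ against cynaroside.

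A further row opposite to COL4A2, COL4A2-AS2, overlapped its exons by only 14 of 1522 bp, short of the 50 bp rule, with 1508 bp in introns. Its level was 682 ± 67.0 CPM in DMSO, 70.3 ± 6.20 CPM in FEBJ and 679 ± 47.8 CPM in cynaroside (SD, n = 2). The log2 ratio of means between FEBJ and DMSO was -3.28 for COL4A2-AS2 and -2.05 for COL4A2-AS1, so the 2 rows opposite to COL4A2 were both lower but by different amounts. Between cynaroside and DMSO the log2 ratios were -0.01 and 0.01.

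The own row of COL4A2 held 372 and 612 counts in DMSO, 33 and 41 in FEBJ and 33 and 235 in cynaroside. Here the cynaroside libraries were under the DMSO libraries too, unlike in the opposite row. The log2 fold change of the own row was -3.51 ± 0.28 in FEBJ and -1.65 ± 0.24 in cynaroside, each against DMSO. The cynaroside value was -2.63 without cynaroside 2. FEBJ against cynaroside gave -1.86 ± 0.30, and -0.87 with cynaroside 2 left out, where the row was no longer called. COL4A1, the partner chain transcribed head to head with COL4A2 and named here after its values were seen, has no opposite exon. Its own row held 67 and 135 counts in DMSO, 3 and 4 in FEBJ and 8 and 23 in cynaroside, a log2 fold change of -4.56 ± 0.58 in FEBJ and -2.31 ± 0.48 in cynaroside.

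SPARC binds collagens and shapes how fibrils assemble, and is made in abundance by activated stellate cells. CLMAT3 held 574 and 860 counts in DMSO, 32 and 54 in FEBJ and 284 and 850 in cynaroside. The levels were 584 and 599 CPM in DMSO, 31.5 and 38.0 CPM in FEBJ and 425 and 433 CPM in cynaroside. The 3 groups did not overlap, with FEBJ lowest and cynaroside between. The means were 592 ± 10.8, 34.8 ± 4.64 and 429 ± 5.63 CPM in DMSO, FEBJ and cynaroside (SD, n = 2). The log2 fold change was -4.07 ± 0.17 in FEBJ, the 5th lowest of the 1440 genes, and -0.46 ± 0.13 in cynaroside. FEBJ against cynaroside gave -3.60 ± 0.18.

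The own row of SPARC held 210 and 274 counts in DMSO, 0 and 0 in FEBJ and 8 and 60 in cynaroside. Against a floor of 3 counts over the FEBJ group it was at least 140.3-fold lower in FEBJ than in DMSO and at least 25.2-fold lower than in cynaroside. In cynaroside its log2 fold change against DMSO was -2.60 ± 0.34, a larger difference than the -0.46 of CLMAT3, and -3.67 without cynaroside 2. Both rows gave the same order of the 3 groups.

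LTBP1 belongs to the fibrillin family and holds the latent form of TGF-beta, the main fibrogenic cytokine of stellate cells, in the matrix. ENSG00000285577 held 43 and 53 counts in DMSO, 5 and 34 in FEBJ and 25 and 69 in cynaroside, the fewest of the 4 genes. The levels were 43.8 and 36.9 CPM in DMSO, 37.4 and 35.1 CPM in cynaroside, and in FEBJ 4.92 CPM (95% exact Poisson interval 1.60 to 11.5) and 24.0 CPM (16.6 to 33.5), intervals that cover counting error only. Both FEBJ libraries were under the 4 others, but their own intervals did not overlap, so the size of the difference is poorly fixed. The means were 40.3 ± 4.82, 14.4 ± 13.5 and 36.3 ± 1.60 CPM in DMSO, FEBJ and cynaroside (SD, n = 2).

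The log2 fold change of LTBP1 was -1.38 ± 0.46 in FEBJ and -0.15 ± 0.42 in cynaroside against DMSO, and -1.23 ± 0.46 in FEBJ against cynaroside. Against DMSO the FEBJ value was -0.76 without FEBJ 1 and -3.0 without FEBJ 2, so 1 library decides it, and LTBP1 was not called without FEBJ 1, nor, at -1.29, without DMSO 1. Against cynaroside it was -0.60 without FEBJ 1 and -2.84 without FEBJ 2. There the gene was also not called at -1.24 without cynaroside 1, at -1.29 without cynaroside 2, or at -1.29 with DESeq2. The own row held 16 and 25 counts in DMSO and 0 in each of the other 4 libraries, which is at least 11.9-fold lower in FEBJ and at least 10.7-fold lower in cynaroside against a floor of 3 counts over the group. It was not called in either comparison without DMSO 2, nor in cynaroside without cynaroside 2.

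TIMP2, the metalloproteinase inhibitor, had the most opposite counts of the 4 genes. ENSG00000267601 held 5707 and 8593 counts in DMSO, 790 and 969 in FEBJ and 4257 and 11211 in cynaroside. The levels were 5807 and 5988 CPM in DMSO, 777 and 683 CPM in FEBJ and 6368 and 5709 CPM in cynaroside. Both FEBJ libraries were under the 4 others, and the cynaroside libraries lay on either side of the DMSO pair. The means were 5897 ± 128, 730 ± 66.8 and 6038 ± 467 CPM in DMSO, FEBJ and cynaroside (SD, n = 2). The log2 fold change was -3.02 ± 0.05 in FEBJ and 0.03 ± 0.04 in cynaroside, each against DMSO, and -3.05 ± 0.05 in FEBJ against cynaroside.

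The own row of TIMP2 held 140 and 183 counts in DMSO, 14 and 24 in FEBJ and 16 and 72 in cynaroside, so it was far smaller than the opposite row in every library. Its log2 fold change was -2.90 ± 0.36 in FEBJ, close to the -3.02 of the opposite row, and -1.61 ± 0.33 in cynaroside, where the opposite row was level. FEBJ against cynaroside gave -1.29 ± 0.39. The TIMP2 own row was not called there at -0.80 without cynaroside 2 or at -1.16 without FEBJ 1.

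**Figure D3:**
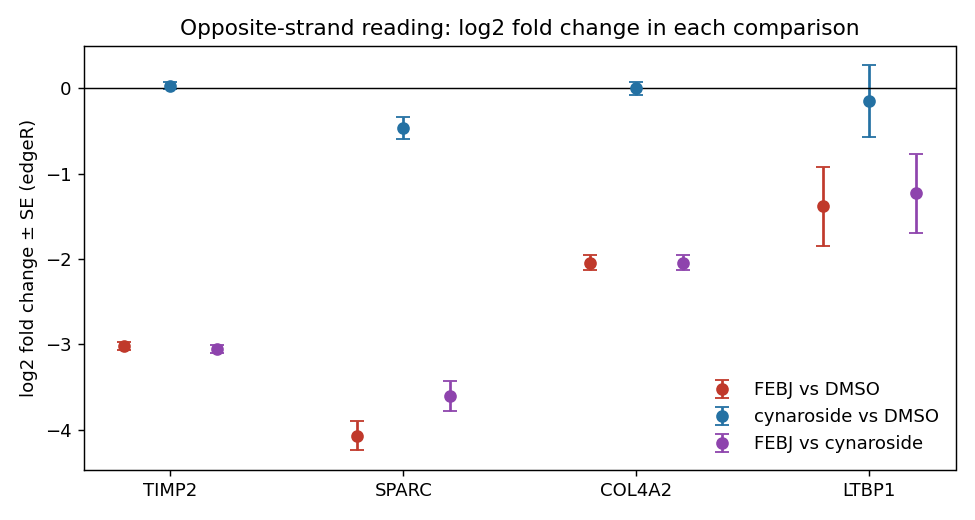
Log2 fold change of the opposite-strand reading (edgeR) of each gene in the 3 comparisons, with its standard error, derived from the test's F statistic, as bar. FEBJ against DMSO and FEBJ against cynaroside nearly coincide for TIMP2 (-3.02 and -3.05) and COL4A2 (-2.04 and -2.04), while SPARC is the 1 gene whose cynaroside value, -0.46, lies several standard errors under 0.

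The cynaroside values depend on how the libraries are scaled. With the library sizes of the deposited rows in place of those of the opposite-strand reading, the median log2 fold change of all 1440 genes in cynaroside against DMSO moved from -0.01 to 0.45, with 737 genes called higher and 100 lower in place of 291 and 310. The 4 genes moved with it, TIMP2 to 0.48 and COL4A2 to 0.46, both then called higher, and SPARC to 0.00, where it was not called, so that SPARC stayed lower than both. In FEBJ against DMSO the median moved from 0.05 to 0.26, with 608 genes higher and 418 lower in place of 517 and 498. In FEBJ against cynaroside it moved from 0.03 to -0.22, with 411 higher and 592 lower in place of 509 and 492.

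In the deposited rows, all 4 genes were called lower after FEBJ and 0 higher, where 24.8% of the 12012 rows were called lower and 26.0% higher. After cynaroside 4 were called lower and 0 higher, where 21.1% of rows were called lower and 24.3% higher. FEBJ against cynaroside gave 3 lower and 0 higher, where 20.4% were called lower and 21.5% higher. The genes were picked from these libraries, so these counts too say nothing beyond the choice. The LTBP1 own row passed the filter through DMSO alone, so its lower calls against DMSO carry no weight. The 3892 tested rows of coding genes that lack an opposite exon had, taken as 1 class, a median log2 fold change of -1.03 in FEBJ and -1.41 in cynaroside against DMSO, under the medians of -0.06 and 0.02 over all tested rows. In FEBJ against cynaroside this class had a median of 0.32, and all rows 0.12. Of the class, 34.6% of rows were called lower and 12% higher in FEBJ, and 39.2% lower and 8.48% higher in cynaroside, each against DMSO.

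The share of the own row in the own and opposite counts together shows how the readings part. For SPARC it was 26.8 and 24.2% in DMSO, 0 and 0% in FEBJ and 2.74 and 6.59% in cynaroside. A count of 0 in FEBJ allows up to 10.7 and 6.64% by the Wilson 95% interval, still under the DMSO shares. For COL4A2 it was 21.5 and 23.5% in DMSO, 9.14 and 7.68% in FEBJ and 3.29 and 8.24% in cynaroside. The shares in both treatments lay under those in DMSO.

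For LTBP1 the share was 27.1 and 32.1% in DMSO and 0% in the 4 other libraries, where the upper Wilson limits were 43.4 and 10.2% in FEBJ and 13.3 and 5.27% in cynaroside. The limit for FEBJ 1 lies above the DMSO shares, so a lower share was not detectable in that library. For TIMP2 it was 2.39 and 2.09% in DMSO, 1.74 and 2.42% in FEBJ and 0.374 and 0.638% in cynaroside, lower in cynaroside alone. The median over 1232 genes with 200 or more opposite counts was 6.60 and 6.65% in DMSO, 4.05 and 3.99% in FEBJ and 1.94 and 2.30% in cynaroside. The lower share in cynaroside was thus seen over these genes as well.

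**Figure D4:**
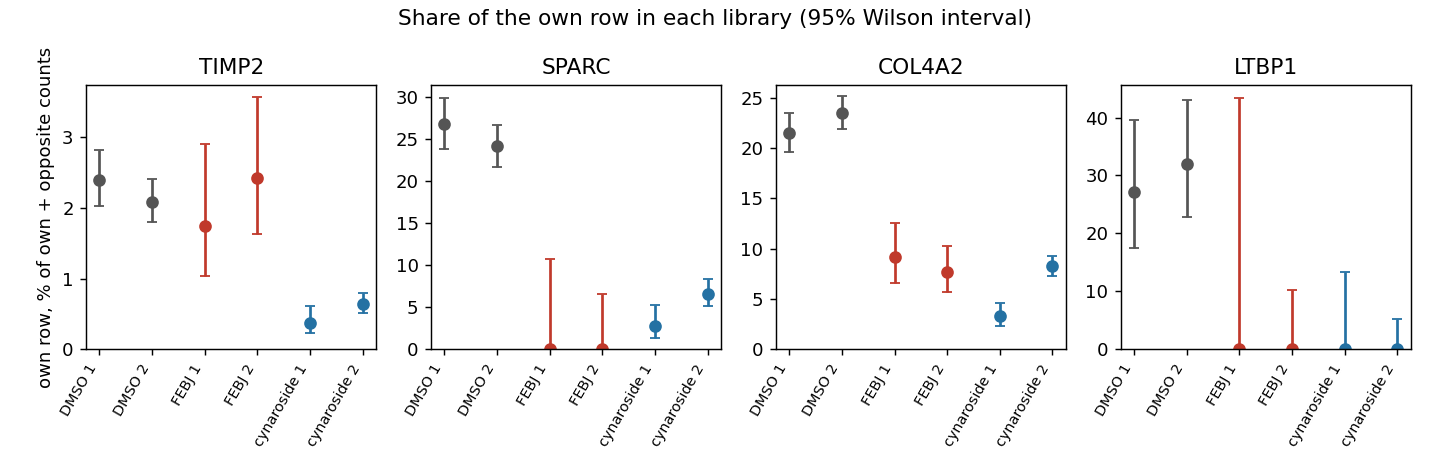
Own row as a percentage of own and opposite counts for each gene in the 6 libraries (points) with 95% Wilson intervals (bars); each panel has its own axis from 0. SPARC, COL4A2 and LTBP1 lie above 20% in both DMSO libraries and under 10% in all 4 treated libraries, whereas TIMP2 stays under 3% throughout.

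Per length of opposite-row exon, the order of the opposite rows in DMSO was that of TIMP2 with 16069 ± 349 CPM per kb, COL4A2 with 2564 ± 12.8, SPARC with 270.0 ± 4.92 and LTBP1 with 21.1 ± 2.52 (SD, n = 2). Each neighbour in that order differed by far more than the spread between libraries. In FEBJ the levels were 1989, 620.3, 15.9 and 7.55 CPM per kb in the same order, with LTBP1 at an SD of 7.04, about as large as its mean. In cynaroside they were 16453, 2576, 196 and 19.0 CPM per kb. The lengths include exon bases of the opposite rows that lie in introns of the gene or outside it. Exon overlap was 100% of the row for TIMP2, 17.4% for SPARC, 15.0% for COL4A2 and 13.0% for LTBP1. Levels per overlapping base were not computed, so this order ranks the rows and not the genes.

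As profiles over the 6 libraries, each centred on its own mean log2 CPM, the nearest genes among the 1439 others of the opposite-strand reading were named by their root mean square difference. For COL4A2 they were NEURL1B at 0.0669, TUBB, a beta-tubulin, at 0.0813 and BLTP2 at 0.110, where the median over all genes was 1.04. TUBB had 42101 ± 19.1 CPM in DMSO, 10561 ± 22.8 in FEBJ and 47486 ± 834 in cynaroside (SD, n = 2). For TIMP2 they included AXL, a receptor tyrosine kinase, at 0.160 and the calcium channel subunit gene CACNG4 at 0.173, with a median of 1.49. AXL had 2236 ± 60.8 CPM in DMSO, 326 ± 15.5 in FEBJ and 2804 ± 14.0 in cynaroside.

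For SPARC the nearest were ITGA6, a laminin-binding integrin chain, at 0.203, CHUK, a kinase of the NF-kappa-B pathway, at 0.225 and LOXL2, which cross-links collagen, at 0.240, with a median of 1.87. LOXL2 had 2832 ± 111 CPM in DMSO, 136 ± 2.34 in FEBJ and 2463 ± 9.33 in cynaroside. For LTBP1 they were ARID1B, a chromatin remodelling subunit, at 0.389, WDFY3, which acts in selective autophagy, at 0.410 and EFCAB14 at 0.453, with a median of 1.12, and here the spread between the FEBJ libraries weighs on the measure. Between the 4 genes themselves the difference was 0.456 for TIMP2 and SPARC, 0.471 for TIMP2 and COL4A2, 0.621 for COL4A2 and LTBP1, and 0.870 or more for the other pairs.

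Around the 4 genes, 5 lists of related matrix genes were counted with the 4 genes left out. The opposite-strand reading reached few of them, so most values come from own rows, where antisense partners cannot be told apart from the gene. Their counts stand beside the 24.8% of all tested rows called lower and 26.0% called higher in FEBJ, and 21.1 and 24.3% in cynaroside, or 34.6 and 12%, and 39.2 and 8.48%, of the coding rows that lack an opposite exon. These counts and shares include rows that passed the filter through 1 group alone, such as ADAM10 and TIMP1 through DMSO. Of the basement membrane genes 18 of 26 own rows were tested, of which 12 fell and 4 rose after FEBJ, with a median log2 fold change of -2.85. After cynaroside 10 fell and 3 rose, with a median of -1.73. LAMC1, the gamma-1 laminin chain, fell with log2 fold changes of -4.62 ± 0.43 in FEBJ and -2.77 ± 0.36 in cynaroside. AGRN, a heparan sulfate proteoglycan, fell with -3.07 ± 0.39 and -1.46 ± 0.35. In FEBJ, LAMC1 had -5.84 without FEBJ 1 and -3.84 without FEBJ 2, and AGRN had -4.21 without FEBJ 2. LAMA5 and LAMB1 rose in FEBJ by 1.46 ± 0.07 and 1.09 ± 0.20, and both rows lie opposite to exons of other genes. In cynaroside they rose by 0.24 ± 0.07 and 1.82 ± 0.20. The LAMA5 call in cynaroside was lost in several alternatives, among them DESeq2 (0.10). In the opposite-strand reading 2 of 3 tested members fell in FEBJ, COL4A3 with -0.43 ± 0.14 and LAMA4 with -1.97 ± 0.60. COL4A3 had no call at -0.22 with the scaling of the deposited rows, and LAMA4 had none at -1.68 without DMSO 2.

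Of the SPARC family and other matricellular genes 11 of 21 own rows were tested, of which 7 fell and 1 rose after FEBJ (median -3.10) and 7 fell and 0 rose after cynaroside (median -1.78). THBS2, an anti-angiogenic thrombospondin, fell with -3.10 ± 0.31 in FEBJ and -1.23 ± 0.27 in cynaroside. CCN1, a matricellular target of YAP, fell with -4.28 ± 0.40 and -1.98 ± 0.33, the latter -2.75 without cynaroside 2. Of this list 2 members were tested in the opposite-strand reading, of which 1 fell and 1 rose in each treatment. THBS3, another thrombospondin, rose there by 1.33 ± 0.17 in FEBJ and by 0.58 ± 0.18 in cynaroside, the latter not called at 0.36 without DMSO 2. THBS1, which can activate latent TGF-beta, moved in opposite directions in its readings after FEBJ, with -3.09 ± 0.27 in the opposite-strand reading and 0.87 ± 0.31 in its own row. The own-row call ended without DMSO 1 (0.67), without FEBJ 1 (0.64), with no filter (0.81) and with DESeq2 (0.77).

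Of the genes of the latent TGF-beta complex, its activators and microfibrils, 18 of 27 own rows were tested. After FEBJ 9 fell and 3 rose (median -0.91), and after cynaroside 8 fell and 3 rose (median -0.56). FN1, the fibronectin to which LTBP1 is anchored early in matrix assembly, fell with -3.13 ± 0.17 in FEBJ and -2.31 ± 0.16 in cynaroside, and FBN1, the fibrillin that anchors it in microfibrils, fell with -2.52 ± 0.52 in cynaroside. LTBP3, another latent TGF-beta binding protein, rose by 0.73 ± 0.13 in FEBJ, where LTBP1 in its opposite row had -1.38. LTBP4 had a log2 fold change of -1.39 ± 0.58 in FEBJ and -1.91 ± 0.61 in cynaroside, and LTBP2, whose row lies opposite to other exons, 0.81 ± 0.70 and 1.66 ± 0.69. LTBP2 and LTBP4 were named after their values were seen, to complete the family. In the opposite-strand reading ITGAV, an integrin chain that releases latent TGF-beta, fell with -2.47 ± 0.26 in FEBJ. LRRC32, which holds latent TGF-beta on cell surfaces, rose there by 3.37 ± 0.74 from 9 to 94 counts, and by 4.17 without DMSO 2. LRRC32 passed the filter through its counts in FEBJ alone, so that call carries no weight.

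Of the metalloproteinases and their inhibitors 12 of 26 own rows were tested, of which 6 fell and 1 rose after FEBJ (median -0.93) and 5 fell and 3 rose after cynaroside (median -0.83). ADAM10, a sheddase, had -3.71 ± 0.73 in FEBJ and -3.32 ± 0.73 in cynaroside in its own row. That row held 112 counts in DMSO, 7 in FEBJ and 8 in cynaroside. It passed the filter through DMSO alone, so its lower calls carry no weight. In the opposite-strand reading ADAM10 fell with -1.31 ± 0.50 in FEBJ, a call lost at -1.16 without DMSO 1 and at -1.17 without FEBJ 2. MMP19 rose by 0.97 ± 0.22 and 1.00 ± 0.22 in a row opposite to other exons. The TIMP2 relative TIMP1 fell with -1.92 ± 0.78 in FEBJ, with DMSO libraries as far apart as 10.4 ± 7.21 CPM (SD, n = 2), and was not called at -1.0 without DMSO 1 (-2.52 without DMSO 2), at -2.14 without FEBJ 1, at -1.71 without FEBJ 2, at -1.97 with no filter or at -1.79 with the replicate block. The TIMP1 own row too passed the filter through DMSO alone, so its lower call carries no weight. MMP2, whose proenzyme TIMP2 binds, had 5 and 4 counts in DMSO and 0 in FEBJ and was not tested.

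Of the TGF-beta receptors, SMADs and early target genes 17 of 25 own rows were tested, of which 6 fell and 1 rose after FEBJ and 5 fell and 1 rose after cynaroside, with a median of -0.85 in both. In the opposite-strand reading ENG, the co-receptor endoglin, fell with -2.21 ± 0.10 in FEBJ and -0.70 ± 0.09 in cynaroside. The falls in own rows stand beside the lower medians of the 3892 coding rows that lack an opposite exon, -1.03 and -1.41, or -1.02 and -1.38 with rows at 0 counts in a group set to the floor. That setting left every list's median against DMSO as given. Of the 5 lists the basement membrane and matricellular medians lay under those of the class in both treatments. In FEBJ against cynaroside, 7 of 18 basement membrane rows were lower and 2 higher, and of 11 matricellular rows 4 and 1. Of 18 latent TGF-beta rows 5 were lower and 4 higher, of 12 metalloproteinase rows 3 and 0. The receptor and SMAD list had 1 and 4 of 17. Over all tested rows 20.4% were called lower there and 21.5% higher. Of the coding rows that lack an opposite exon the shares were 11.3% and 16.2%.

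**Figure D5:**
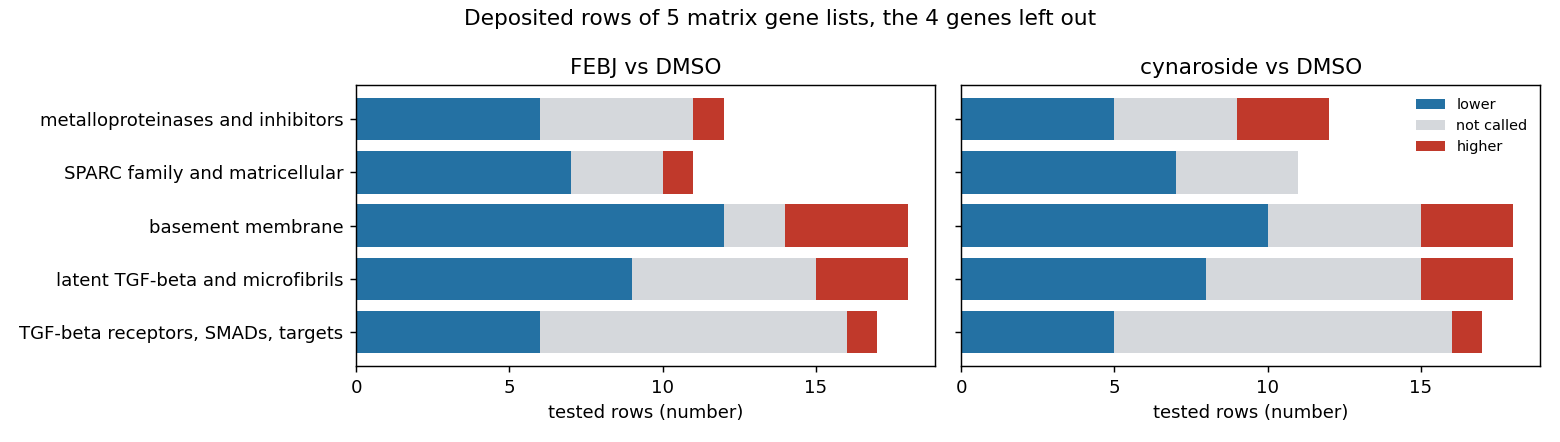
Number of tested own rows of the 5 lists that were called lower, not called or called higher (edgeR, adjusted p of 0.05) in FEBJ and in cynaroside, each against DMSO, with the 4 genes left out. Lower calls outnumber higher ones in these lists, as they do over all coding rows that lack an opposite exon, with 12 of 18 basement membrane rows lower in FEBJ and 10 in cynaroside.

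The promoters of COL4A2 and SPARC are shown for a contrast in the opposite-strand reading. There these 2 genes were lower together in FEBJ and parted in cynaroside, whereas both own rows were lower in cynaroside (-1.65 and -2.60). The windows are the 250 bases before the start on the gene's strand, from RefSeq on GRCh38.p14, with motif matches in capitals. COL4A2 is at chr13:110307034-110307283 on the plus strand and SPARC at chr5:151686916-151687165 on the minus strand.
COL4A2 promoter: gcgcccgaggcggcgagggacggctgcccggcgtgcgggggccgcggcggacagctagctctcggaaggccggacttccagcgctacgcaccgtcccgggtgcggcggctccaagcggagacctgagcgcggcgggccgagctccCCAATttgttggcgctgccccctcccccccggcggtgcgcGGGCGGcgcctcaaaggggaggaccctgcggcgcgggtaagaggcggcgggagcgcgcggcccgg
SPARC promoter: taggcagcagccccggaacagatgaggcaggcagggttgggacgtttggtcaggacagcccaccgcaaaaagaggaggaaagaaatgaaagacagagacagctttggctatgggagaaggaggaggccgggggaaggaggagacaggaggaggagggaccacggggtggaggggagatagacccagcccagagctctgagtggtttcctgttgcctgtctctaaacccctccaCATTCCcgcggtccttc
On both strands, 6 motifs were searched. COL4A2 held 1 GC box (GGGCGG, found in 42.6% of 35116 promoters of that length) and 1 CCAAT box (CCAAT, 32.0%), and SPARC held 1 TEAD match (GGAATG, 11.9%), printed as its reverse complement. The TATA box (TATAAA, 10.7%), the AP-1 motif (TGANTCA, 6.57%) and the E box (CACGTG, 6.34%) had no match in either window. GC content was 78.8% for COL4A2 and 59.2% for SPARC, with a median of 58.0% over all promoters. A match describes the letters and is no evidence of binding.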

How the data were processed

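Total RNA of LX-2 cells was sequenced in 6 libraries. Per the submitters' processing notes, CASAVA 1.7, HISAT2, HTSeq 0.12.4 and DESeq2 1.38.0 were used with hg19. The authors deposited raw counts per gene, 1 table per library. The library kit, strand setting, annotation and doses were not given in the sources used here. The 5 summary rows were left out. Overlaps came from GENCODE 29 on GRCh38, which holds 58261 of 62754 rows; it is not the build named in the notes, so no row coordinates are given. Rows outside it have no overlap, and opposite features numbered 1825.

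Each reading was filtered with filterByExpr (minimum count 10), scaled by TMM and fitted in edgeR 4.0.16 (R 4.3.3) with 3 group means and 3 residual degrees of freedom. The quasi-likelihood test was used with Benjamini-Hochberg adjustment over all genes of a reading at 0.05, and checked on simulated data. The SE of an edgeR log2 fold change was derived as its absolute value divided by the square root of the test's F statistic. Profiles used a pseudocount of 0.5. From each list, the called genes with the highest mean CPM were eligible for naming, up to 2 that rose and 3 that fell. Some genes eligible by this rule or as nearest profiles are not reported here. Alternatives were other scalings and filters, a replicate block, left-out libraries and DESeq2 1.42.0. The members and lists were chosen with earlier results of these data known.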

Additional observations from a re-analysis of the deposited data

How the results depend on the processing

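The number of genes called stayed within 1.5 times of the reported one in all 93 alternatives run, over both readings and the 3 comparisons. For the 4 genes, 356 of 371 alternative values kept direction and side of the threshold, and those that did not are given beside the genes, apart from 1 that reversed. With the scaling of the deposited rows, cynaroside against DMSO turned from -0.00 to 0.46 for COL4A2 and, among the nearest profiles, from -0.20 to 0.26 for LOXL2, because all genes shift with that scaling. Of 1210 alternative values for the other named genes, 53 lost their call, 5 gained one and 1 reversed. Depth limits LTBP1 most, with 5 to 69 opposite counts per library.

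Libraries with the same number were not treated as paired, since the labels state no pairing. The correlations of their deviations from the group means ranged from -0.11 to 0.05 over both readings. Such values show no visible effect shared by a number, but cannot establish the design. With the replicate block, 1006 genes were called in FEBJ against DMSO in place of 1015, 583 in cynaroside against DMSO in place of 601, and 998 in FEBJ against cynaroside in place of 1001. In the deposited rows the block gave 5762, 5110 and 4801 in place of 6107, 5454 and 5034. For the 4 genes the block changed no call.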
